A study of Homo sapiens with 4 samples.

Results

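Peaks of p53 ChIP-seq were examined at 7 genes grouped under DNA repair and nucleotide supply: REV3L, XPC, DDB2, POLH, RRM2B, FANCC and RPS27L. A deposited peak was counted for a gene when its summit, the base of highest signal, lay inside the RefSeq gene of GRCh38 or within 10 kb of it. This gave 9 of the 11488 peaks on chromosomes 1 to 22, X and Y in 4 libraries, and 4 of the 7 genes had at least 1 of them. The cells were H1299, an established line of non-small-cell lung carcinoma with the genotype p53-/-, in which p53 was expressed as the wild type (p53WT, 2 libraries) or as the mutant CASM34 (2 libraries). The series title places CASM34 among cancer-associated synonymous mutations, which change a codon but not the amino acid it encodes. Both groups were precipitated with the p53 antibody DO-1 and share the cell line, its genotype and the culture medium. No vector, expression level, sampling time or DNA-damaging agent is named in the labels, and nothing says whether replicates 1 and 2 came from separate cultures. Peak lists hold no expression, so the labelled cell type could not be checked against marker genes.

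p53 is a transcription factor that is stabilised after DNA damage and binds a response element made of a pair of short palindromic p53 half-sites. Among its targets are genes that find or bypass DNA lesions and that supply deoxynucleotides for repair. XPC and DDB2 recognise lesions, such as those made by ultraviolet light, for nucleotide excision repair. POLH, the polymerase eta, and REV3L, the catalytic subunit of polymerase zeta, copy DNA past lesions that stop the replicative polymerases. RRM2B, also named p53R2, is a subunit of ribonucleotide reductase. FANCC belongs to the Fanconi anaemia core complex, which acts on DNA crosslinks, and RPS27L is a paralog of the ribosomal protein gene RPS27. RPS27L is in the set by this grouping, and no repair or nucleotide supply role of it is described here.

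The stretches of reference sequence shown here carry the positions described below. They are given 5′ to 3′ on the strand of the gene and come from the promoter windows of RefSeq (GRCh38.p14), which held 9 windows for 6 of the 7 genes; RRM2B was not among them. The REV3L stretch (chr6:111483437-111483466, minus strand) lies between the annotated starts of this gene, and its 2 capitals mark the summits of p53WT 1 and p53WT 2. The RPS27L stretch (chr15:63157478-63157727, minus strand) is the 250 bases before its start, with a p53 half-site in capitals. The POLH stretch (chr6:43576039-43576184, plus strand) is the whole gap of 146 bases between the divergent genes XPO5 and POLH, with GC box letters (GGGCGG) in capitals. The DDB2 stretch (chr11:47214975-47215004, plus strand) holds 2 p53 half-sites in capitals.
REV3L: cctcacccaGgtgaccgtgccCgccagccg
RPS27L: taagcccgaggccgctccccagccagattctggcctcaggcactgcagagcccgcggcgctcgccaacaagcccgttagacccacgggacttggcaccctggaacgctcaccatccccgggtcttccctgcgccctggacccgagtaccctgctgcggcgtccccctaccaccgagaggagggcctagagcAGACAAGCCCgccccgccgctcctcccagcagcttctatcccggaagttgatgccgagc
POLH: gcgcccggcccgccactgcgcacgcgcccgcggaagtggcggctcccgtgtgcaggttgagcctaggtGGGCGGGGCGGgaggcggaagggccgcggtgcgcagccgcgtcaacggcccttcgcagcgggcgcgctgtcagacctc
DDB2: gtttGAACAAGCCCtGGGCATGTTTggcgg

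The libraries differed in list length more by their number than by their group, with 1604 and 4961 peaks for p53WT (numbers 1 and 2) against 1712 and 3211 for CASM34. Read counts were not in the lists, so the depth behind each peak is unknown, and a gene without a peak may still have been bound.

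REV3L and RPS27L were the members with a peak in more than 1 library. REV3L was called in p53WT 1, p53WT 2 and CASM34 2, and RPS27L in p53WT 2 and CASM34 2. POLH was called in CASM34 2 and FANCC in p53WT 2, while XPC, DDB2 and RRM2B were called in no library. Per library this was 1 of 7 genes in p53WT 1 (14.3%) and 3 of 7 in p53WT 2 (42.9%). In CASM34 1 it was 0 of 7, and in CASM34 2 it was 3 of 7 (42.9%). The 7 genes are a chosen set and not random draws, so no interval is put on these shares. Among all 20037 protein-coding genes the same rule called 1.39%, 16.2%, 1.67% and 10.9%. Calls in both p53WT 2 and CASM34 2, as for REV3L and RPS27L, were made for 5.43% of coding genes, calls in both p53WT libraries for 1.05%, in p53WT 2 alone for 10.3% and in CASM34 2 alone for 5.22%. The 7 genes were chosen with results of these lists known, so no excess over this background can be read from their count.

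**Figure D1:**
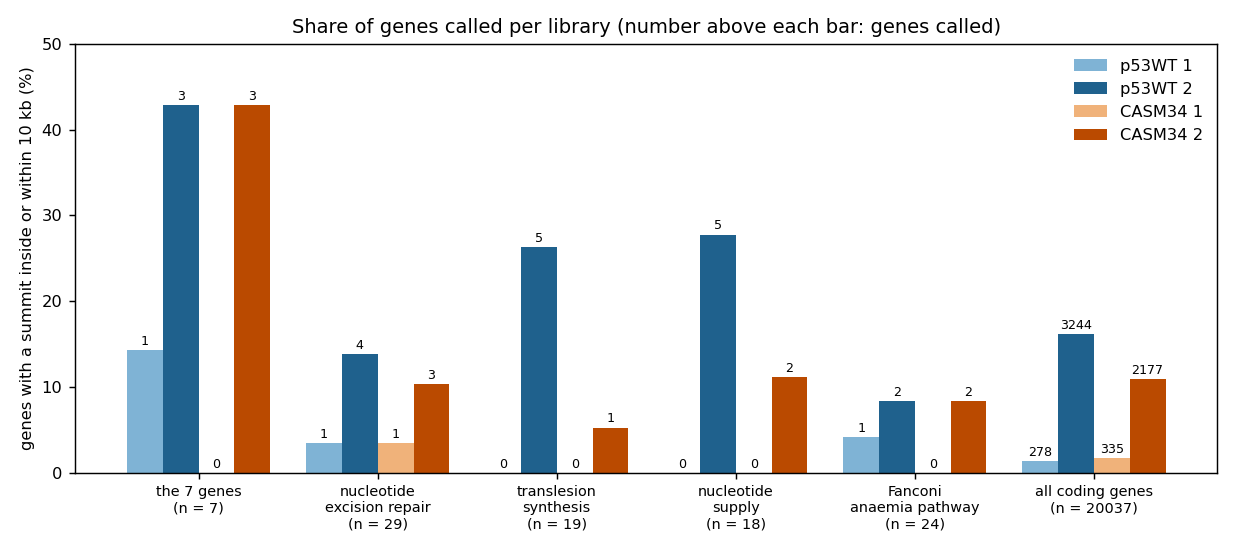
Share of genes with a summit inside or within 10 kb, in percent, for the 7 genes, 4 related pathway lists and all protein-coding genes; bars are the 4 libraries, and the number above a bar is the count of genes called. The 7 genes had 1, 3, 0 and 3 calls, and in every set shown p53WT 2 and CASM34 2 held at least as many calls as p53WT 1 and CASM34 1.

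The 2 groups were not separated by these genes. The p53WT libraries had a mean of 2.0 ± 1.41 called genes (SD, n = 2) and the CASM34 libraries one of 1.5 ± 2.12 (SD, n = 2). This difference of 0.5 lay within the replicate spread (p = 1 by an exact permutation test, two-sided, which cannot go below 0.333 here). For peaks the means were 2.5 ± 2.12 (SD, n = 2) and 2.0 ± 2.83 (SD, n = 2), again 0.5 apart (p = 1 by the same exact test). Within number 1 the p53WT library had 1 called gene more than the CASM34 library, and within number 2 the difference was 0. The sign of this difference was not stable. Without p53WT 2 the difference in called genes was -0.5, and without CASM34 1 it was -1.0. With all 4 libraries it was -0.5 among peaks with a −log10 q of 3 or more, among those with 5 or more, and with lists of equal length, and it was 0 within 50 kb and with gene ends only.

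REV3L (chromosome 6, 111299033 to 111483711, minus strand) carried 2 regions at its 5′ end, and each was called in a different pair of libraries. The outer region (111483367 to 111483562) was called in both p53WT libraries, with summits at 111483457 in p53WT 1 and 111483445 in p53WT 2, 12 bp apart. It lay between the annotated starts at 111483711 and 111483218, with the p53WT 1 summit 254 bp downstream of the first and 239 bp upstream of the second. The inner region (111482627 to 111483097) was called in p53WT 2 and CASM34 2, with summits at 111482697 and 111482737, 40 bp apart and 1014 and 974 bp downstream of the outer start. Both regions together thus gave p53WT 2 a pair of summits 748 bp apart, while p53WT 1 had the outer one and CASM34 2 the inner one. CASM34 1 had no summit within 5414.4 kb of the gene.

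The outer REV3L peaks were weak in their own lists. The p53WT 1 peak had a deposited −log10 q of 2.12 and a fold of 4.43, at percentile 8.10 of the −log10 q in that list. In p53WT 2 the values were 1.75, 3.81 and percentile 17.0. The inner peaks stood near the middle, with a −log10 q of 3.03, a fold of 4.58 and percentile 53.6 in p53WT 2, and 4.25, 5.07 and percentile 58.4 in CASM34 2. All of these values are those of the authors' caller and rank a peak within its list only. Calls in both p53WT libraries and neither CASM34 library were made for 0.422% of the 4265 regions at protein-coding genes, 18 regions in all. The pattern of the inner region, p53WT 2 and CASM34 2 alone, was that of 10.8%. Because the inner region was also called with CASM34, REV3L as a gene was called in both groups.

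**Figure D2:**
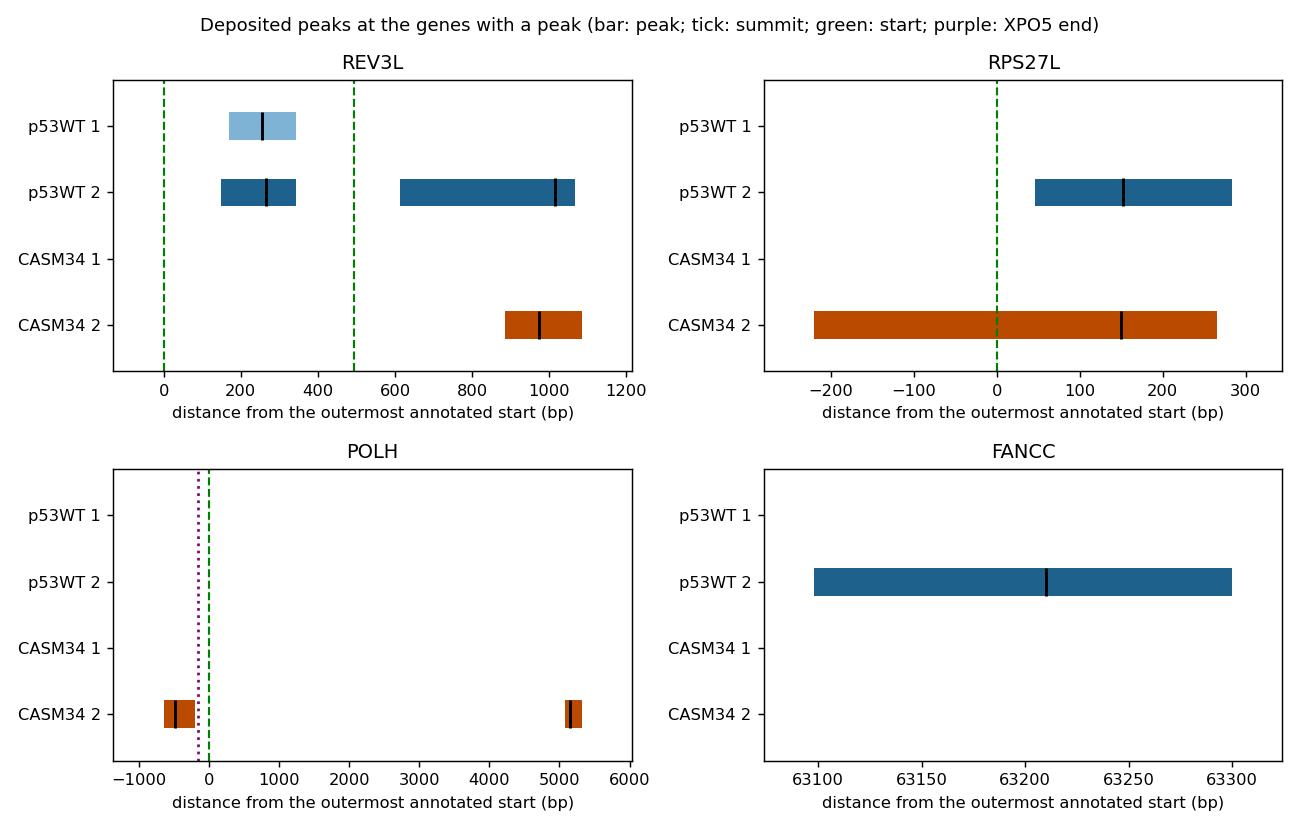
Peaks (bars) and summits (black ticks) at the 4 genes with a peak, 1 line per library, against the distance in bp from the outermost annotated start. Green dashed lines are annotated starts and the purple dotted line is the 5′ end of XPO5. At REV3L the p53WT libraries share the outer region and p53WT 2 and CASM34 2 the inner one, and at RPS27L the summits of p53WT 2 and CASM34 2 lie 2 bp apart.

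RPS27L (chromosome 15, 63148249 to 63157477, minus strand) held the best-ranked member peaks. In p53WT 2 the peak ran from 63157193 to 63157431 with its summit at 63157325, a fold of 5.98 and a −log10 q of 4.73 (percentile 75.1 of the list). In CASM34 2 it ran from 63157211 to 63157697 with its summit at 63157327, a fold of 8.90 and a −log10 q of 11.2 (percentile 83.1). The summits were 152 and 150 bp downstream of the start. Over the 625 regions at coding genes that p53WT 2 and CASM34 2 both called, the nearest summits were a median of 66 bp apart (quartiles 21 and 166), and 3.52% of these regions had summits at most 2 bp apart. The peaks shared 221 bp, which is 45.4% of the longer one. No summit lay within 10 kb in p53WT 1, where the nearest was 2373.3 kb away, or in CASM34 1, where it was 105.5 kb away. Its paralog RPS27 was called in no library.

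The CASM34 2 peak at RPS27L reached upstream of the start and covered 90.0% of the 300-base promoter window, while the p53WT 2 peak covered 4 bases of it. The half-site printed above lies at -59 to -50 from the start (chromosome 15, 63157527 to 63157536). It was inside the CASM34 2 peak, 200 bp from its summit, and outside the p53WT 2 peak, 202 bp from that summit. A p53 half-site, alone or with others, was found in 6.21% of the 22199 promoter windows of protein-coding genes. Pairs with the spacing of a full element were found in far fewer, as described for DDB2 below.

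POLH (chromosome 6, 43576185 to 43620523, plus strand) had peaks in CASM34 2 only among the 4 lists. The first (43575540 to 43575988) had its summit at 43575707, 478 bp upstream of the POLH start and 331 bp inside XPO5, which encodes the export receptor exportin 5 and points the other way. Its −log10 q was 4.72, its fold 5.39 and its percentile 63.3. The end of this peak lay 51 bp from the first base of the gap between the genes, and 54 bases of the POLH promoter window were inside the peak. The annotated 5′ end of XPO5 is thus nearer to this summit than the start of POLH. The second (43581268 to 43581503) had its summit 5152 bp downstream of the POLH start, with a −log10 q of 2.29 (percentile 23.8). In p53WT 2 the nearest summit to POLH was 120.7 kb away, in p53WT 1 206.7 kb and in CASM34 1 14830.3 kb. Whether binding at POLH differs between the groups was not tested, since CASM34 1 lacked the peaks too.

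FANCC (chromosome 9, 95099054 to 95317709, minus strand) had 1 peak, in p53WT 2 (95254409 to 95254611), deep inside the gene. Its summit at 95254499 was 63210 bp downstream of the outer start. With a −log10 q of 1.31 and a fold of 3.66 it stood at percentile 0.232 of the list, and its −log10 q was the lowest in p53WT 2. FANCC and REV3L are long genes, of 218656 and 184679 bp. Of coding genes of at least 100 kb, 28.7% were called in p53WT 2 and 18.6% in CASM34 2. RPS27L spans 9229 bp, and of coding genes of at most 10 kb these libraries called 10.1% and 6.99%. Closest outside the 10 kb limit lay another p53WT 2 summit at FANCC, 19.5 kb beyond the outer end, at percentile 16.3; the other summits between 10 and 50 kb were in CASM34 2, 28.4 kb from DDB2 and 39.4 kb from REV3L.

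**Figure D3:**
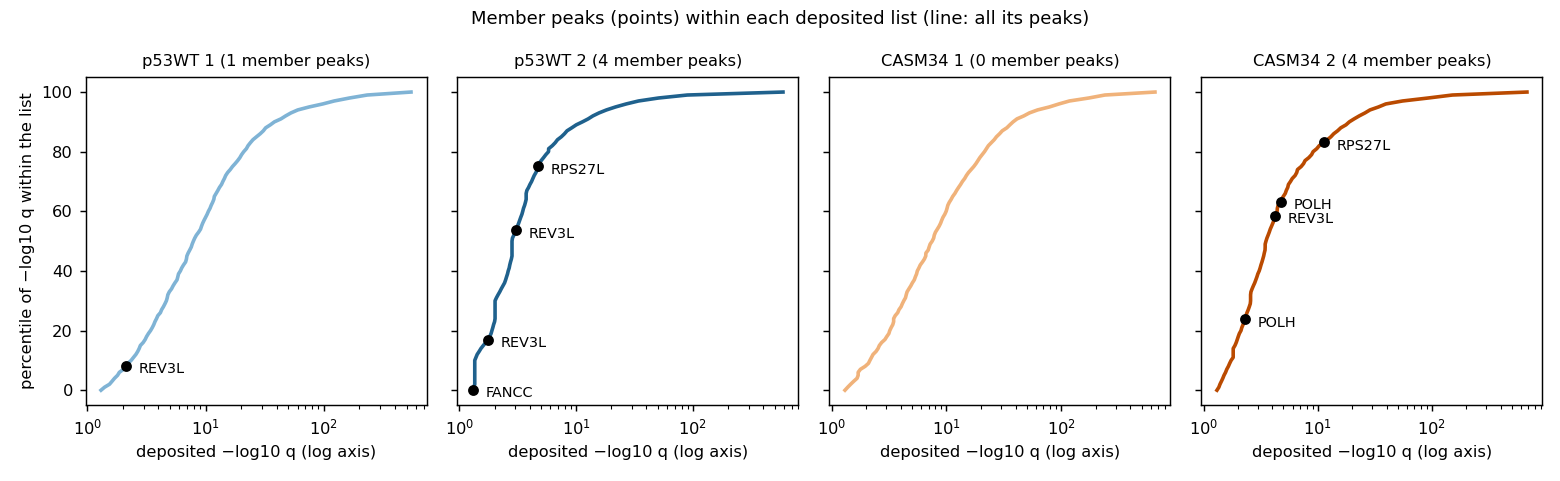
Percentile of the deposited −log10 q within each list against −log10 q on a log axis; the line is the whole list and the points are the member peaks. RPS27L stands highest among the members, at percentile 75.1 in p53WT 2 and 83.1 in CASM34 2, and FANCC lowest, at 0.232.

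The lesion sensors XPC and DDB2 and the reductase subunit RRM2B had no peak within 10 kb in any library. For XPC (chromosome 3, 14145147 to 14178601) the nearest summits were 80.3 kb away in p53WT 2, 550.0 kb in CASM34 2, 696.9 kb in CASM34 1 and 14134.7 kb in p53WT 1. For RRM2B (chromosome 8, 102204501 to 102238961) they were 101.8 kb away in p53WT 2, 173.1 kb in CASM34 2, 9213.4 kb in p53WT 1 and 7254.7 kb in CASM34 1. DDB2 (chromosome 11, 47214454 to 47239217) had its nearest summit in CASM34 2, 28.4 kb outside the gene, with a −log10 q of 1.44 at percentile 3.19. In p53WT 2 it was 169.5 kb away, and in p53WT 1 and CASM34 1 1476.3 kb. A gene called in no library was the common case, at 77.8% of coding genes.

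Of the 6 members with promoter windows, DDB2 was nevertheless the one with a full p53 element in a window. RRM2B had no window and was not searched. The half-sites of DDB2 lie at bases 6 to 26 from its second annotated start (47214974), with 1 base between them, at 47214979 to 47214999 on chromosome 11. The search used a p53 half-site pattern that allows alternative letters at some positions, so the half-sites printed above differ from each other. This pattern reads the same on both strands, and only matches without a deviating letter were taken. A pair of matches with at most 13 bases between was taken as a full element. Full elements were found in 4 of the 22199 windows (0.018%). The nearest summit to the DDB2 element was 28.9 kb away in CASM34 2, 193.8 kb in p53WT 2, and 1476.8 and 1476.9 kb in the libraries numbered 1. Of the 9 member windows, 2 held a half-site, that of RPS27L and the second one of DDB2. The REV3L, XPC, POLH and FANCC windows held none, which says only that no match to the half-site pattern is in those 300 bases.

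**Figure D4:**
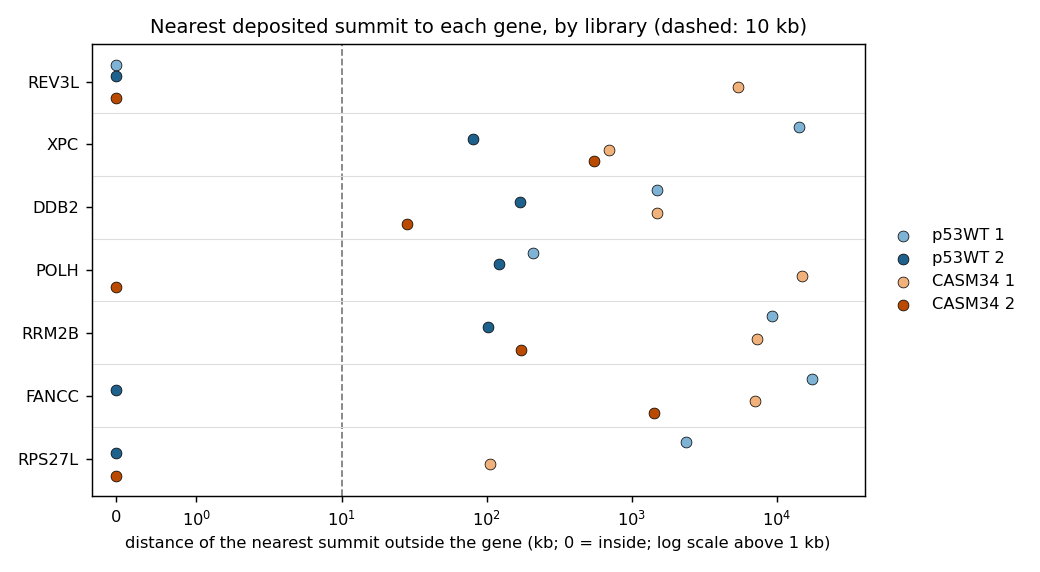
Distance in kb from each gene to the nearest summit, by library; 0 means that a summit lies inside, the axis is logarithmic above 1 kb and the dashed line is the 10 kb limit. XPC, DDB2 and RRM2B have no point at or left of the limit, and the nearest of their points is DDB2 in CASM34 2, at 28.4 kb.

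Member promoters varied in base composition. The 9 windows held 58.3 to 78.7% G and C, against a median of 62.3% over all windows. The GC box letters GGGCGG were found on either strand in 8 of the 9, and in 56.3% of all windows. The windows with a summit or a peak edge were those of REV3L (second start, 74.0% G and C), POLH (74.7%) and RPS27L (67.3%). The other windows held no peak base. They had 75.7% at the outer REV3L start, 71.0 and 78.7% at FANCC, 60.3% at XPC, and 58.3 and 65.3% at DDB2. Whether base composition goes with peaks was not tested.

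Stricter thresholds left RPS27L longest. Among peaks with a −log10 q of 3 or more, REV3L and RPS27L were called in p53WT 2, REV3L, POLH and RPS27L in CASM34 2, and no member in the libraries numbered 1. The POLH call rested here on its first peak alone (−log10 q 4.72), whose summit lies inside XPO5. The shares of all coding genes at this threshold were 0.903% and 6.48% for p53WT (numbers 1 and 2) and 0.958% and 5.54% for CASM34. At 5 or more, RPS27L in CASM34 2 was the one call left, where the shares were 0.599%, 1.83%, 0.664% and 1.74% in the same order. The RPS27L peak of p53WT 2 fell just under that threshold at 4.73.

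By position, 6 of the 9 member peaks had their summit within 1 kb of a gene end and the other 3 were farther inside a gene. The REV3L summit of p53WT 2 at 1014 bp fell just outside this class, and that of CASM34 2 at 974 bp just inside it. Among all peaks at coding genes, 58.9% in p53WT 2 and 60.2% in CASM34 2 lay within 1 kb of an end, against 23.9% in p53WT 1 and 26.1% in CASM34 1. Merged, the member peaks gave 6 regions: 3 in 2 libraries, 3 in 1 library and none in 3 or 4. Of all regions at coding genes 16.6% were called in 2 or more libraries and 83.4% in 1. Having 2 peaks at 1 gene, as REV3L in p53WT 2 and POLH in CASM34 2, was seen for 14.4% and 11.4% of the coding genes called in those libraries.

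Pooled over 91 genes on 5 related lists, 16 were called in p53WT 2 (17.6%, against 16.2% of all coding genes) and 8 in CASM34 2 (8.79%, against 10.9%), and 2 and 1 in the libraries p53WT 1 and CASM34 1. The single lists spread around these shares, on few genes each. Nucleotide excision repair had 4 of 29 genes in p53WT 2 (13.8%) and 3 of 29 in CASM34 2 (10.3%). UVSSA, a factor of transcription-coupled repair, was the one gene of these lists with a peak in all 4 libraries, as in 0.519% of coding genes, with summits 1785 to 1831 bp outside its 3′ end and percentiles of 66.1 to 89.7. Translesion synthesis had 5 of 19 in p53WT 2 (26.3%) and 1 of 19 in CASM34 2 (5.26%). Nucleotide supply had 5 of 18 (27.8%) and 2 of 18 (11.1%), with 1 peak of p53WT 2 counted for both NME1 and its neighbour NME2. NME1, a nucleoside diphosphate kinase, was in both lists, with summits 206 and 159 bp inside its 5′ end at percentiles 67.7 and 38.0. The Fanconi anaemia list had 2 of 24 in each of these libraries (8.33%).

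Calls in p53WT 1, p53WT 2 and CASM34 2 but not in CASM34 1, as for REV3L, were shared by 63 other coding genes, 0.319% of all with REV3L itself. By the mean difference in the distance of the nearest summit from a gene end over these 3 libraries, the most alike were ASPH (186 bp), LOC124901647 (221 bp) and ASF1A (256 bp). For comparison, the reference targets CDKN1A and MDM2 were called in neither p53WT 1 nor CASM34 1. CDKN1A, which encodes the cell cycle inhibitor p21, had 2 peaks in CASM34 2. The one with its summit 163 bp outside the 5′ end had a −log10 q of 10.7 at percentile 82.6, beside 11.2 and 83.1 for RPS27L in the same list, and the other, 9041 bp outside that end, had 1.93 at percentile 16.0. In p53WT 2 the CDKN1A summit lay 2427 bp inside the gene from its 5′ end, with 3.39 at percentile 58.5. MDM2, whose product marks p53 for degradation, was called in p53WT 2 alone, with 3.50 at percentile 60.4, beside 4.73 and 75.1 for RPS27L there.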

How the data were processed

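ChIP-seq peak lists of 4 libraries were analysed, 2 per group. Per the submitters' processing notes, Trim Galore, Bowtie2 and bedtools were used with the build GRCh38; for the peak caller, a control and the threshold the sources used here give no name. Each deposited list is from 1 library and gives intervals, summits, a deposited fold, which is a ratio of signal over background, deposited −log10 values of p and q, and a score, which in the deposited rows is the −log10 q times 10 without its decimals. The lowest deposited −log10 q corresponds to a q-value of 0.0495. Read depth is unknown.

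Where several rows shared 1 interval, the row with the highest −log10 p was kept, and peaks were taken on chromosomes 1 to 22, X and Y. Genes and starts came from RefSeq tables of GRCh38.p14, and starts and strand from the promoter windows (250 bases before to 50 after a start). Exons and a genome sequence were not used here, so exons, introns and letters under peaks outside the windows are not described. Percentiles are mean ranks of −log10 q within a list. Peaks were shared at an overlap of at least 1 bp. Group means were compared by an exact two-sided permutation test, whose p reflects nothing beyond the spread of these libraries, possibly a technical one. Gene and region assignment was tested on simulated peaks. Python 3.11.15, pandas 2.3.3, NumPy 2.4.6, SciPy 1.17.1 and matplotlib 3.10.9 were used.

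Named were all 7 members; genes of the related lists called in 2 or more libraries; the 3 genes most like REV3L; and CDKN1A and MDM2 as reference targets. RPS27 was named as the paralog on its list, and XPO5, NME2, MCC, PTCHD4 and DYNC2H1 were picked as neighbours or promoter matches with their values already known. The members and lists were chosen with earlier results of these data known. The GC box search and the gene-length classes were added after the values were seen. Alternatives covered the distance (2 and 50 kb, gene ends only), −log10 q of at least 3 and 5, lists of equal length, the overlap, the nearest gene and each replicate left out.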

Additional observations from a re-analysis of the deposited data

How the results depend on the processing

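No setting gave a permutation p below 0.667 for either group difference, and with 2 libraries a group none could fall below 0.333. The difference of 0.5 in called genes and in peaks became 0 within 50 kb and with gene ends only. It was -0.5 for both at a −log10 q of at least 3, at 5 and with lists of equal length; the cause was not tested. Leaving out each library in turn gave -1.0 to 2.0 genes (-0.5 without p53WT 2, 1.5 without p53WT 1, 2.0 without CASM34 2) and -1.5 to 2.5 peaks (-1.0 without p53WT 2). The replicate block, differences within the number, gave 0.5 for both (exact permutation p = 1, smallest possible 0.5); the labels do not say that a number pairs libraries. With −log10 q at 5 or more the member left was RPS27L in CASM34 2. With lists of 1604 peaks each, REV3L remained in p53WT 1, RPS27L in p53WT 2, and REV3L, POLH and RPS27L in CASM34 2, beside 1.39%, 3.53% and 3.94% of all coding genes in these lists and 1.38% in CASM34 1. The POLH call in that list rested on the peak with its summit inside XPO5 alone. Of the 9 member peaks 6 overlapped a peak of another library, and 2 did at a reciprocal overlap of 50%, those of the outer REV3L region. The share of all peaks that overlap in these ways is not given, so no excess can be read from these counts. The related lists had 1 call among 91 genes in p53WT 1 within 2 kb, where the share of all coding genes was 0.948%. Within 50 kb they had 28 in p53WT 2, 2 in CASM34 1 and 23 in CASM34 2, beside 27.5%, 3.52% and 18.9% of all coding genes. The unknown depth limits every absence.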

Other observations

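Full p53 elements in a promoter window were found for 4 coding genes: MCC, PTCHD4, DDB2 and DYNC2H1. Of these, MCC was called in p53WT 2 and CASM34 2, and the other 3 in no library. Such a call places a summit anywhere inside the gene or within 10 kb. The distance from the MCC element to a summit is not given, so binding at that element cannot be read from it. The set was chosen after the DDB2 match was seen, and 4 genes are too few to set against the background of 16.2% and 10.9% called in those libraries.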
